A study of Homo sapiens with 4 samples.

Results

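Nuclear receptors are transcription factors whose activity is commonly set by small lipid-soluble ligands such as steroids, retinoids, thyroid hormone, vitamin D and oxysterols. Most bind DNA through a zinc-finger domain, many as partners of a retinoid X receptor (RXR), and they switch target genes by exchanging corepressors for coactivators. Others are orphans with no settled physiological ligand, and a few act mainly through other proteins. In lung tumours the family is known for the glucocorticoid receptor, for PPARG and the retinoid receptors in differentiation, and for NR0B1, which has been described in KEAP1-mutant lung cancer cells as part of a protein complex with RBM45 and SNW1.

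The 44 genes described here were taken by name from a deposited table of 58735 genes. RNA was sequenced from cultured human tumour cells, given as squamous cell carcinoma of the lung, in 2 libraries at 30 Gy and 2 at 0 Gy (Gy, gray, measures radiation dose). The design text names the SK-MES-1 line and its radiotherapy-resistant derivative SK-MES-1-RR, but the labels do not tie either to a library, and give neither the fractionation of the 30 Gy nor the time of RNA collection. No other treatment or genotype is labelled, and nothing states that replicates were separate cultures, so the p-values measure the spread between these libraries, which may be technical.

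Whole reads recovered from the table totalled 15920861 and 15979341 at 30 Gy, against 17261121 and 16773381 at 0 Gy. Of 6 squamous markers, KRT5, KRT6A and DSG3 had 0 reads in the 4 libraries, KRT14 had 0 to 4 and SOX2 had 4 to 22, while TP63 stood at 3.34 and 3.19 FPKM (fragments per kilobase of transcript, scaled to library depth) at 30 Gy, against 3.95 and 4.14 FPKM at 0 Gy. The defining leukocyte, endothelial and lung adenocarcinoma markers summed to at most 0.160 FPKM per list and library. The 6 fibroblast markers summed to 78.7 and 72.4 FPKM at 30 Gy, against 62.8 and 63.2 FPKM at 0 Gy. That sum was nearly all COL1A1, with DCN at 0 reads in the 4 libraries and COL1A2 at 0 or 1. LUM had 43 and 63 reads at 30 Gy against 1 and 5 at 0 Gy, PDGFRB had 166 and 171 at 30 Gy against 81 and 87 at 0 Gy, and COL3A1 had 4 and 6 at 30 Gy against 1 and 1 at 0 Gy. No fibroblast marker was called by limma. voom, fitted on recovered reads of genes with at least 10 reads in 2 libraries, called COL1A1 and PDGFRB higher at 30 Gy (adjusted p = 0.00875 and 0.000657). It called 14.8% of all its genes higher. LUM was also called higher, but passed that minimum through the 30 Gy libraries alone. The part of these markers in the results below was not tested. In such bulk RNA, fewer cells expressing a gene and less RNA per cell cannot be told apart.

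Of the 44 genes, 21 reached 1 FPKM in at least 2 libraries and were tested. NR0B1 was the one large change, 4.36-fold lower in mean FPKM at 30 Gy. Around it, PPARD and NR2F1 rose and ESRRA, RXRA, THRA and PPARG fell, each by a factor of 1.31 to 1.73 in mean FPKM. limma on log2(FPKM + 1), with p-values adjusted over the 13379 genes tested, called 8 of the 21 at an adjusted p under 0.05, or 38.1%, against 19.8% of all tested genes. Among the members 3 were higher and 5 lower, where 10.8% of all tested genes were higher and 9.06% lower. One of the 3, NR4A2, reached 1 FPKM in the 30 Gy libraries alone, so its place among the tested genes depended on its being high there. Without it, 7 of 20 were called, 2 higher and 5 lower. Of 913 tested genes that carry a transcription factor family in the authors' deposited table, 17.5% were called. The median log2 change was -0.16 over the 21 members and -0.00068 over all tested genes. The 30 Gy and 0 Gy libraries did not overlap for 17 of the 21, 6 higher and 11 lower, against 65.2% of all tested genes. voom on the recovered reads called the same 8 in the same direction and 4 more, 12 of 21 against 31.4% of all tested genes. Of these 12, 4 were higher and 8 lower, where voom called 16.3% of all tested genes higher and 15.1% lower. NR4A2 is among the 6 that were higher without overlap and the 4 that voom called higher, so both counts carry its limit. The members were chosen with earlier results known, so these shares are a description.

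**Figure D1:**
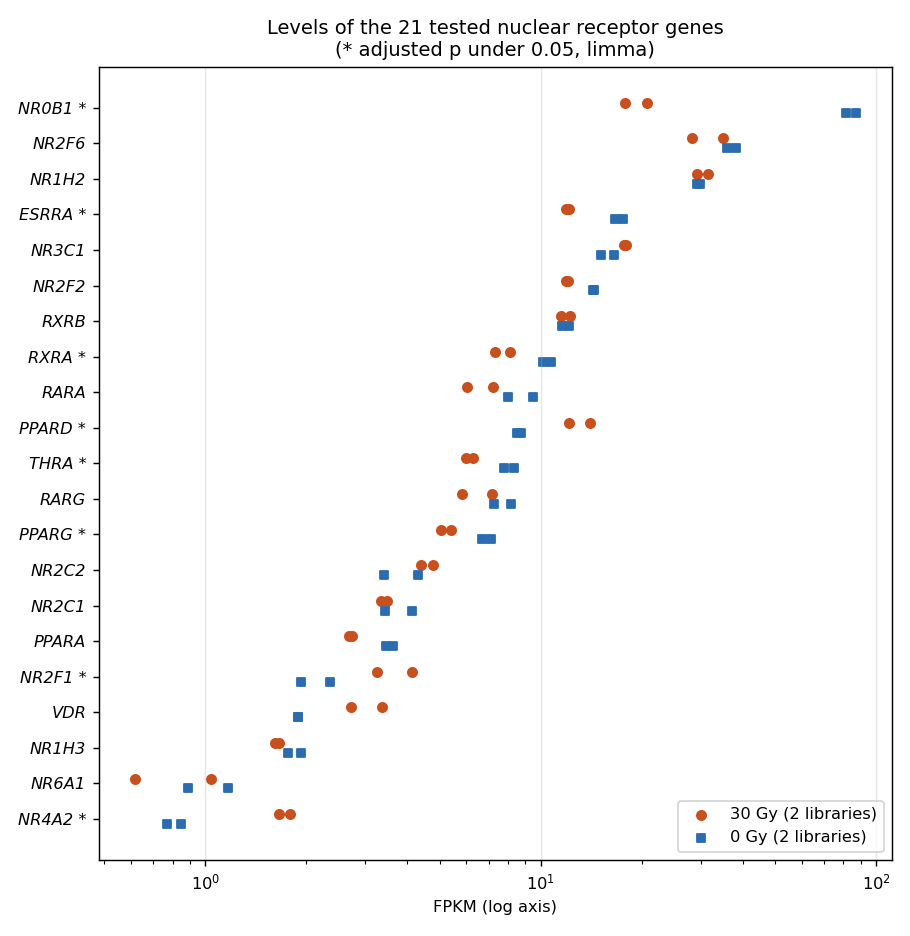
FPKM on a log axis for each of the 21 tested members, with 30 Gy libraries as circles and 0 Gy libraries as squares, ordered by the 0 Gy mean. NR0B1 stood first at 0 Gy (87.0 and 81.6) and fell to 20.8 and 17.9 at 30 Gy, while no other tested member differed more than 2.14-fold between the dose means.

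NR0B1, also known as DAX1, lacks the zinc-finger DNA-binding domain and acts by binding and repressing other receptors. It stood at 20.8 and 17.9 FPKM in the 30 Gy libraries (730 and 627 reads), against 87.0 and 81.6 FPKM in the 0 Gy libraries (3336 and 3056 reads). Both 30 Gy libraries were far below both 0 Gy libraries. NR0B1 averaged 19.3 ± 2.03 FPKM at 30 Gy, against 84.3 ± 3.82 FPKM at 0 Gy (SD, n = 2 each), a log2 change of -2.07 ± 0.09 (SE; limma, adjusted p = 0.00122). Per length it was the highest of the 44 members at 0 Gy, and at 30 Gy NR2F6 and NR1H2 stood above it. Its share of the FPKM summed over the 44 members was 9.70% and 9.07% at 30 Gy, against 30.4% and 29.1% at 0 Gy. The other 43 members together summed to 193 and 179 FPKM at 30 Gy and 199 and 198 FPKM at 0 Gy. Without one or the other 0 Gy library, limma called 0 of all genes (3422 and 3460 at an unadjusted p under 0.05), and NR0B1 had an adjusted p of 0.0673 without the first and 0.0696 without the second.

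The gene lies on the short arm of the X chromosome at chrX:30304206-30309598 (hg38, minus strand) and is protein-coding. Its upstream window is shown because NR0B1 carries the largest change of the family. The 250 bases before its RefSeq start (GRCh38.p14) are printed 5′ to 3′ on the gene's strand, with a nuclear receptor half-site AGGTCA (first base 143 bases upstream) and a TATA box TATAAA (32 bases upstream) in capitals.
NR0B1, chrX:30309391-30309640, minus strand: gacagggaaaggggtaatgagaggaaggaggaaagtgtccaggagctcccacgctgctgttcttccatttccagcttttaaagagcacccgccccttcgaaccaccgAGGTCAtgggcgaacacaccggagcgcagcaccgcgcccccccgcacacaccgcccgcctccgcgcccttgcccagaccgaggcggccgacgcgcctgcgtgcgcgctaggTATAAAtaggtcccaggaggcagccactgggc
The RefSeq start lies 208 bases inside the deposited gene, so most of this window is within the deposited bounds. The half-site, searched on both strands, occurs in 12.1% of 35116 such windows of all genes and TATAAA in 10.7%. The core of the antioxidant response element, TGACNNNGC, which occurs in 10.9% of windows, had no match in these 250 bases. These are letter matches and say nothing of binding.

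Of 5 tested neighbours of NR0B1 within 1 Mb, 1 was called higher and 0 lower, beside 10.8% and 9.06% of all tested genes. That gene was MAGEB2, a cancer-testis antigen at chrX:30215560-30220089, at 16.1 and 16.4 FPKM in 30 Gy libraries against 2.64 and 2.45 FPKM in 0 Gy libraries. Its log2 change was 2.29 ± 0.07 (SE; limma, adjusted p = 0.000778). MAGEB1, TAB3, GK and DMD had log2 changes of -0.29, -0.07, -0.05 and -0.29 and did not pass (limma, adjusted p = 0.219, 0.747, 0.834 and 0.213). Of the described partners and regulators of NR0B1, SNW1, a splicing and transcription cofactor, stood at 33.9 ± 0.391 FPKM at 30 Gy, against 44.2 ± 0.127 FPKM at 0 Gy (SD, n = 2 each), a fall that passed (limma, adjusted p = 0.0155). KEAP1, which targets NRF2 for degradation, stood at 34.3 ± 0.458 FPKM at 30 Gy, against 42.0 ± 0.865 FPKM at 0 Gy (SD, n = 2 each; limma, adjusted p = 0.0311). These were the 2 of 4 genes on that list that were called, beside 19.8% of all tested genes. RBM45 and NFE2L2, which encodes NRF2, were not called. A list of 4 is too short to set against that share. With any library left out, 0 of the 4 passed.

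The peroxisome proliferator-activated receptors (PPARs), which sense fatty acids and pair with RXRs, were split, as PPARD rose and PPARG fell. PPARD, the widely expressed form tied to fatty acid oxidation, stood at 14.1 and 12.2 FPKM in 30 Gy libraries against 8.53 and 8.76 FPKM in 0 Gy libraries. PPARG, the regulator of fat cell differentiation, stood at 5.40 and 5.05 FPKM at 30 Gy against 7.11 and 6.69 FPKM at 0 Gy. PPARA, which drives fatty acid oxidation in liver, stood at 2.75 and 2.68 FPKM at 30 Gy against 3.47 and 3.62 FPKM at 0 Gy. The dose groups did not overlap for any of the 3 genes, beside 65.2% of all tested genes without overlap. PPARD was the one of the 3 with higher 30 Gy libraries. PPARD rose by 0.55 ± 0.09 on the log2 scale (SE; limma, adjusted p = 0.0188), or 1.52-fold by the means. PPARG changed by -0.34 ± 0.08 (SE; limma, adjusted p = 0.0399) and PPARA by -0.29 ± 0.09 without passing (limma, adjusted p = 0.0759; voom 0.00776). The ratio of PPARD to PPARG within a library was 2.61 and 2.41 at 30 Gy and 1.20 and 1.31 at 0 Gy, a pair chosen after the values were seen and given with no test. With 1 library left out in turn, the adjusted p was 0.0386 (second 30 Gy library) to 0.136 for PPARD and 0.0934 to 0.200 for PPARG.

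The windows upstream of these genes are shown because the pair moved apart. Both windows end where the deposited gene begins, and capitals mark AGGTCA, which has 2 matches in the PPARG window (first bases 217 and 184 bases upstream) and none in the PPARD window.
PPARD, chr6:35342308-35342557, plus strand: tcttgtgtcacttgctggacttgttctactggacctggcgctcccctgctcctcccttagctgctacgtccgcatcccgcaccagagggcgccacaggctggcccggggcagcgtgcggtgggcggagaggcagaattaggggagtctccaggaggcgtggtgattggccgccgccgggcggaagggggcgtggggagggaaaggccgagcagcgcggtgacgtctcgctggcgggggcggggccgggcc
PPARG, chr3:12287118-12287367, plus strand: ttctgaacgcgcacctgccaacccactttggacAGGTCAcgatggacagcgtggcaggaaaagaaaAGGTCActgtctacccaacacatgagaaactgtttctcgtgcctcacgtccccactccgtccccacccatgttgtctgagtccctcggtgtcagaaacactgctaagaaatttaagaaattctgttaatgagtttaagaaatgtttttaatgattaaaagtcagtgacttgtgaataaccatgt
The windows also differ in base composition, at 70.8% G and C for PPARD and 44.8% for PPARG. Gene-level values do not say which start was used. Over the family, 39 of the 44 genes had windows in the table, 93 in all, of which 15 (16.1%) hold AGGTCA.

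The liver X receptors, NR1H2 (LXR-beta) and NR1H3 (LXR-alpha), sense oxysterols and raise cholesterol export. NR1H2 was among the highest members in every library, at 31.5 and 29.3 FPKM at 30 Gy and 29.3 and 29.9 FPKM at 0 Gy, with overlapping groups. Its log2 change was 0.04 (95% interval -0.13 to 0.21; limma, adjusted p = 0.715), and it turned to -0.01 without the first 30 Gy library. NR1H3 stood at 1.62 and 1.66 FPKM at 30 Gy and 1.76 and 1.93 FPKM at 0 Gy, a log2 change of -0.11 that did not pass (95% interval -0.40 to 0.19; limma, adjusted p = 0.539). NR1H3 shares 4.17% of its exon bases with ACP2 on the other strand, which was higher at 30 Gy (log2 change 0.56; limma, adjusted p = 0.0194), and whether counting used strand is not stated.

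**Figure D2:**
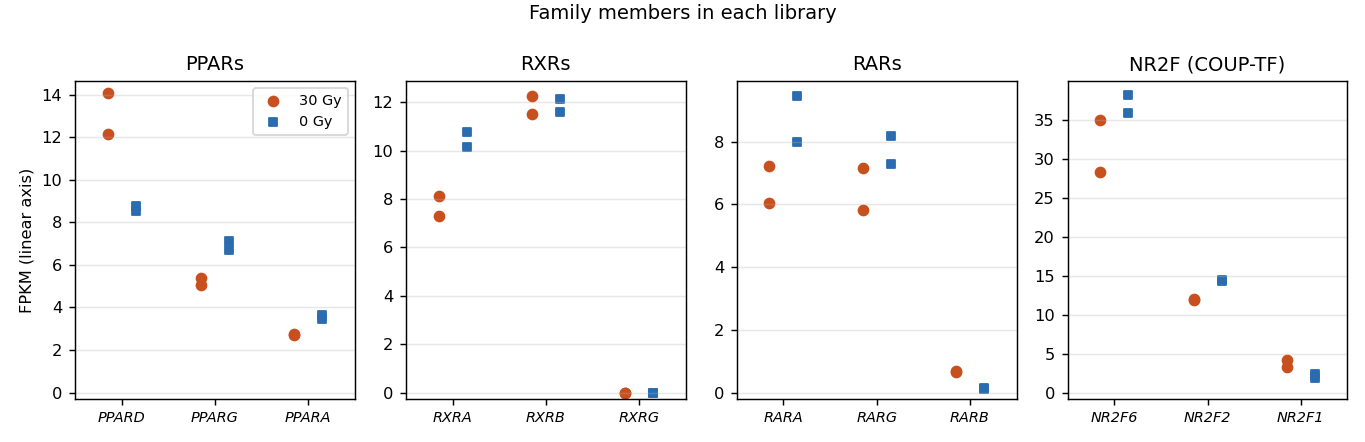
FPKM on linear axes from 0 for the PPAR, RXR, RAR and NR2F families, 30 Gy libraries as circles left of 0 Gy libraries as squares. PPARD, NR2F1 and RARB were higher at 30 Gy while both 30 Gy libraries lay below both 0 Gy libraries for the other PPAR, RAR and NR2F members.

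The retinoid X receptors are the shared partners of the PPARs, LXRs, retinoic acid, thyroid hormone and vitamin D receptors. RXRA stood at 8.13 and 7.31 FPKM in 30 Gy libraries against 10.2 and 10.8 FPKM in 0 Gy libraries. RXRB stood at 11.5 and 12.3 FPKM at 30 Gy against 12.1 and 11.6 FPKM at 0 Gy, and RXRG had 0 reads in the 4 libraries. The groups were separate for RXRA and interleaved for RXRB. RXRA changed by -0.40 ± 0.08 (SE; limma, adjusted p = 0.0316), with an adjusted p of 0.0664 to 0.176 when 1 library was left out in turn. RXRB changed by 0.00 (95% interval -0.18 to 0.18), a sign that turned under 3 scalings and 2 omissions of a library. The RXR levels summed to 19.6 FPKM in each 30 Gy library and 22.3 FPKM in each 0 Gy library. RXRB shares 6.22% of its exon bases with SLC39A7 on the other strand, which was higher at 30 Gy (log2 change 0.38; limma, adjusted p = 0.0291). The part of that overlap in the RXRB value was not tested.

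The retinoic acid receptors (RARs) bind all-trans retinoic acid and drive differentiation genes. RARA stood at 7.23 and 6.03 FPKM at 30 Gy against 9.46 and 7.995 FPKM at 0 Gy, and RARG at 7.17 and 5.82 FPKM at 30 Gy against 7.28 and 8.17 FPKM at 0 Gy. For both genes the 30 Gy libraries lay below the 0 Gy libraries, by a narrow margin for RARG. Groups were separate, in either direction, for 65.2% of all tested genes. Neither passed, at log2 changes of -0.35 ± 0.12 and -0.22 ± 0.12 (SE; limma, adjusted p = 0.101 and 0.229), though voom called RARA (adjusted p = 0.0231). RARB, itself a classical retinoic acid target, was below the FPKM minimum, at 0.695 and 0.663 FPKM at 30 Gy (41 and 39 reads) against 0.124 and 0.143 FPKM at 0 Gy (8 and 9 reads). The 30 Gy libraries were 5.08-fold higher by the means and the groups were far apart. voom over genes with at least 10 reads in 2 libraries, added after the data were seen, tested RARB only because its 30 Gy libraries passed that minimum, so its p is not given. limma with no filter did not call it (adjusted p = 0.0862). The voom fit called 28.5% of its 16446 genes, 14.8% higher and 13.6% lower. It called 13 of the 29 members it tested, 5 higher and 8 lower, with RARB and NR4A2 among the higher ones. RARB is in the 29, the 13 and the 5 only through its 30 Gy libraries, so these counts lend it no support.

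One RefSeq start of RARB is preceded by the classical retinoic acid response element, shown here because RARB had the widest gap between the dose groups among untested members over 3 reads in every library. The capitals mark a direct repeat, GTTCA, then 6 bases of any kind, then GTTCA again. Its first base lies 52 bases upstream of that start. The motif, on both strands, occurs in 0.0484% of all windows and in no other window of the family. This window was picked because it holds the motif, so the match was fixed in advance. As a letter match it says nothing of binding.
RARB, chr3:25428013-25428262, plus strand: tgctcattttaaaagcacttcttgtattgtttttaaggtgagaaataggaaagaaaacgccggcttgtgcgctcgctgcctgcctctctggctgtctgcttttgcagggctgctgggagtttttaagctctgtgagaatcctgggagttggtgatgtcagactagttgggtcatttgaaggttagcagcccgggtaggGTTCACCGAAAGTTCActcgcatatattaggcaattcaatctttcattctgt
The deposited gene begins 253931 bases before this start, and the table gives no value per start. RARB shares 0.757% of its exon bases with TOP2B on the other strand.

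The thyroid hormone receptor THRA stood at 5.99 and 6.27 FPKM at 30 Gy against 8.31 and 7.78 FPKM at 0 Gy. Both 30 Gy libraries lay below both 0 Gy libraries, and the log2 change was -0.34 ± 0.07 (SE; limma, adjusted p = 0.0363; 0.0936 to 0.187 with 1 library left out in turn). THRA shares 3.78% of its exon bases with NR1D1, a clock-linked nuclear receptor outside the 44 genes, on the other strand. NR1D1 was itself lower, at 21.2 ± 0.476 FPKM at 30 Gy, against 30.1 ± 0.240 FPKM at 0 Gy (SD, n = 2 each; limma, adjusted p = 0.00948), and its part in the THRA value was not tested. THRB had 69 and 69 reads at 30 Gy and 69 and 73 at 0 Gy and was not tested. The vitamin D receptor VDR stood at 2.73 and 3.37 FPKM at 30 Gy against 1.89 and 1.89 FPKM at 0 Gy. Its groups did not overlap, and its log2 change of 0.48 ± 0.12 lay just outside the threshold (SE; limma, adjusted p = 0.0504; voom 0.00642).

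**Figure D3:**
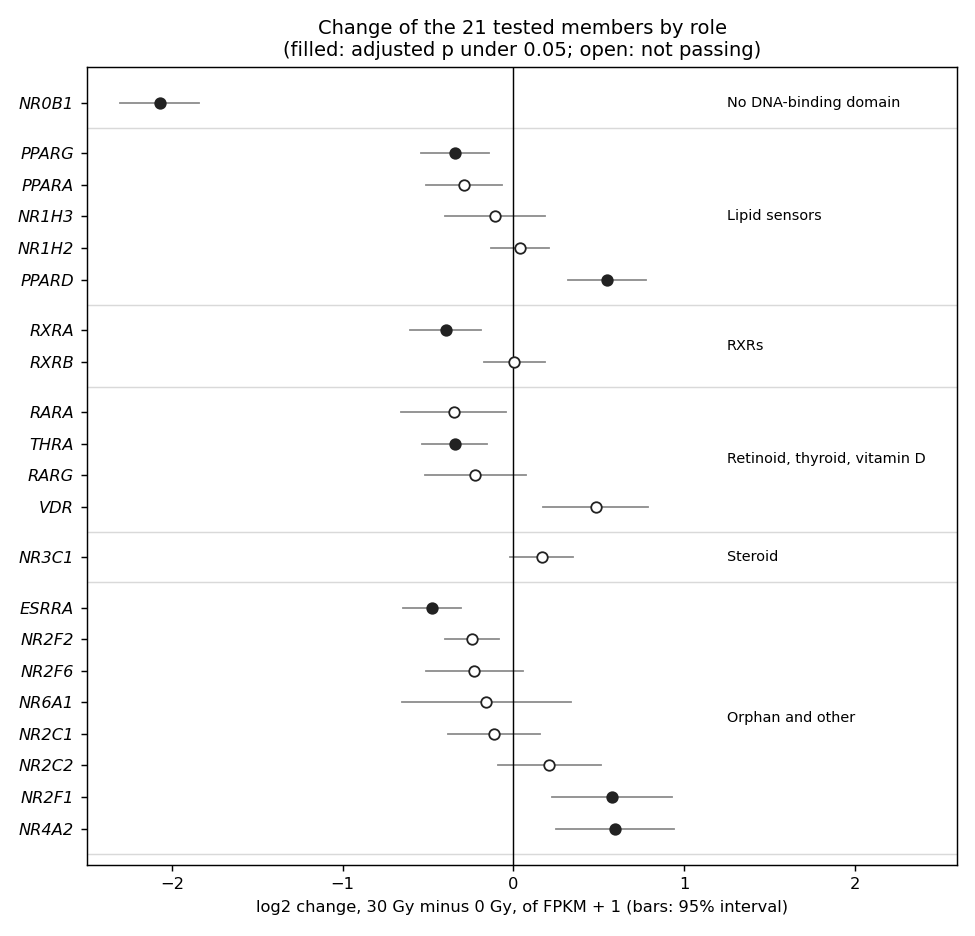
log2 change of FPKM + 1, 30 Gy minus 0 Gy, with 95% intervals for the 21 tested members, grouped by role; filled points passed an adjusted p of 0.05 in limma. NR0B1 lies at -2.07, and every other member lies between -0.48 and 0.59.

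Among steroid receptors, the glucocorticoid receptor NR3C1 was the one tested. NR3C1 stood at 17.7 and 18.0 FPKM at 30 Gy against 15.1 and 16.6 FPKM at 0 Gy, higher in both 30 Gy libraries. Its log2 change of 0.17 ± 0.07 did not pass (SE, 95% interval -0.02 to 0.35; limma, adjusted p = 0.166). The mineralocorticoid receptor NR3C2 had 46 and 34 reads at 30 Gy against 74 and 71 at 0 Gy, which voom did not call (log2 change -0.76 ± 0.32, SE; adjusted p = 0.0813). The progesterone receptor PGR had 40 and 79 reads at 30 Gy and 83 and 92 at 0 Gy. The estrogen receptors were near the floor, with 4 and 5 reads of ESR1 at 30 Gy against 3 and 2 at 0 Gy, and 14 and 8 reads of ESR2 at 30 Gy against 20 and 21 at 0 Gy. At these depths a change in ESR1 was not detectable.

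ESRRA, estrogen-related receptor alpha, is an orphan receptor that works with PGC-1 coactivators on mitochondrial genes. It stood at 11.9 and 12.1 FPKM at 30 Gy against 17.7 and 16.6 FPKM at 0 Gy, with tight pairs that did not overlap. The log2 change was -0.48 ± 0.07 (SE; limma, adjusted p = 0.0131; 0.0577 to 0.110 with 1 library left out in turn). ESRRA shares 9.37% of its exon bases with TRMT112 on the other strand, which did not pass (log2 change -0.09; limma, adjusted p = 0.646). Of its relatives, ESRRG had 14 and 9 reads at 30 Gy against 0 and 3 at 0 Gy, and ESRRB had 3 and 0 reads at 30 Gy against 0 and 0 at 0 Gy.

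The NR2F receptors (COUP-TFs) are orphan regulators of development that often oppose retinoid signalling. NR2F1 stood at 4.14 and 3.26 FPKM at 30 Gy against 1.93 and 2.36 FPKM at 0 Gy. NR2F2 stood at 11.9 and 12.0 FPKM at 30 Gy against 14.3 and 14.4 FPKM at 0 Gy, and NR2F6 at 34.9 and 28.4 FPKM at 30 Gy against 38.2 and 35.9 FPKM at 0 Gy. Each gene had separate groups, as had 65.2% of all tested genes, with NR2F1 higher at 30 Gy and NR2F2 and NR2F6 lower. NR2F1 rose by 0.58 ± 0.14 on the log2 scale (SE; limma, adjusted p = 0.0457), or 1.73-fold by the means. That call was lost with each library left out in turn (0.0681 to 0.214). NR2F2 changed by -0.24 ± 0.06 and NR2F6 by -0.23 ± 0.11 without passing (SE; limma, adjusted p = 0.0519 and 0.205), and voom called NR2F2 (adjusted p = 0.0192). The ratio of NR2F1 to NR2F2 within a library was 0.347 and 0.271 at 30 Gy and 0.135 and 0.163 at 0 Gy, a pair chosen after the values were seen. NR2F1-AS1, which shares 3.66% of the exon bases of NR2F1 on the other strand, had 1.40 and 1.45 FPKM at 30 Gy, against 0.841 and 0.800 FPKM at 0 Gy, and its part was not tested.

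NR4A receptors are induced within minutes by growth factors and stress. NR4A2 (NURR1) stood at 1.78 and 1.66 FPKM at 30 Gy (113 and 105 reads) against 0.768 and 0.845 FPKM at 0 Gy (53 and 57 reads). The groups were separate, and the 30 Gy mean was 2.14-fold the 0 Gy mean. Since NR4A2 reached the FPKM minimum through the 30 Gy libraries alone, the fold is a description and the limma p is not given, although limma called the gene. That limma call was lost with each library left out in turn. With the minimum of 10 reads, which its 4 libraries each passed, voom gave NR4A2 a log2 change of 1.09 ± 0.26 (SE; adjusted p = 0.00404). NR4A1, the best-known immediate early member, had 41 and 31 reads at 30 Gy and 59 and 42 at 0 Gy, and NR4A3 had 8 and 0 at 30 Gy and 8 and 5 at 0 Gy. Both were below the FPKM minimum, and on the FPKM scale the groups overlapped for both.

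The remaining tested orphans did not pass. NR2C2 (TR4) stood at 4.40 and 4.79 FPKM at 30 Gy against 3.41 and 4.30 FPKM at 0 Gy, a log2 change of 0.21 (95% interval -0.09 to 0.51; limma, adjusted p = 0.262). NR2C1 (TR2), which pairs with it, stood at 3.48 and 3.35 FPKM at 30 Gy against 3.44 and 4.14 FPKM at 0 Gy (log2 change -0.11, 95% interval -0.38 to 0.16; limma, adjusted p = 0.484). NR6A1, a germ cell nuclear factor, stood at 1.04 and 0.618 FPKM at 30 Gy against 1.17 and 0.892 FPKM at 0 Gy (log2 change -0.16, 95% interval -0.65 to 0.34; limma, adjusted p = 0.597). The groups overlapped for NR2C1 and NR6A1. NR2C2 shares 10.1% of its exon bases with MRPS25 on the other strand, which did not pass (log2 change -0.07; limma, adjusted p = 0.728).

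The 23 members that were not tested included 3 with 0 reads in every library, RXRG, the bile acid receptor NR1H4 and the hepatocyte factor HNF4A. For these 3 genes, 3 reads in a library would equal 0.0236 to 0.0699 FPKM, a limit that covers counting error only. A further 9 had 1 to 10 reads in their highest library: the xenobiotic receptors NR1I2 and NR1I3, and ESR1, ESRRB, NR0B2, NR2E1, NR4A3, NR5A1 and NR5A2. The other 11 had more, led by HNF4G with 47 and 66 reads at 30 Gy against 112 and 79 at 0 Gy (voom adjusted p = 0.106). RORB, a neural receptor, had 21 and 4 reads at 30 Gy against 0 and 3 at 0 Gy, so its higher sum came from 1 library. RORA had 4 and 19 reads at 30 Gy against 17 and 12 at 0 Gy, and the retinal receptor NR2E3 had 9 and 4 at 30 Gy against 11 and 3 at 0 Gy. Of the 8 untested members that reached 10 reads in 2 libraries, voom called 0 besides RARB, with the limit on RARB given above.

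**Figure D4:**
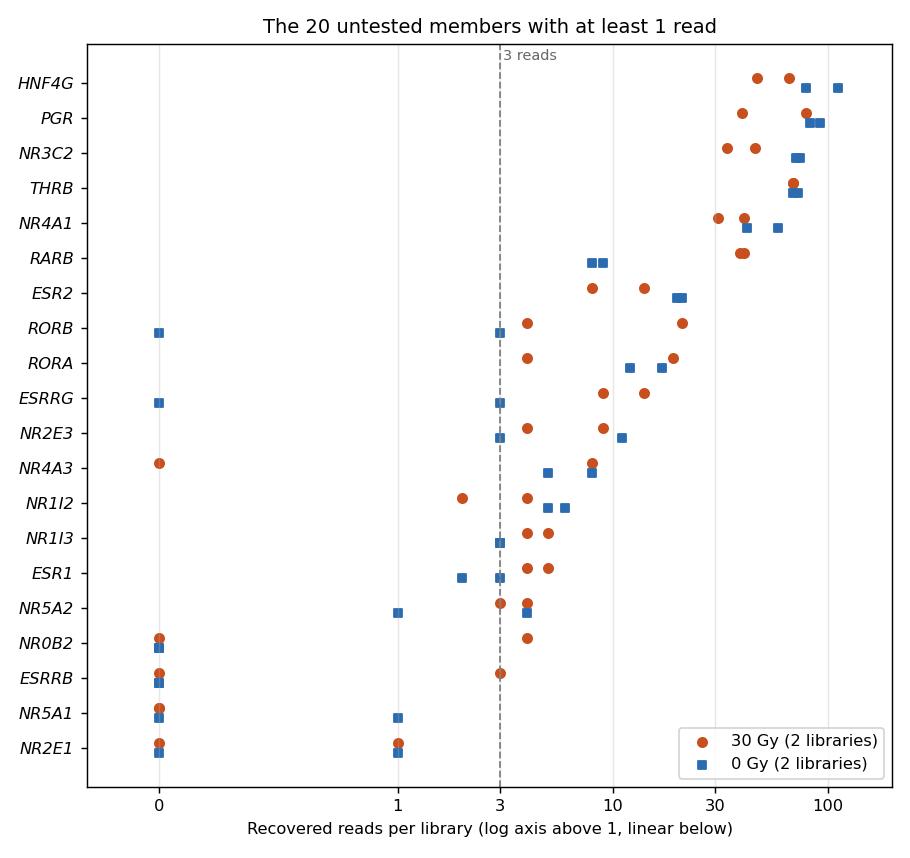
Recovered reads per library for the 20 untested members with at least 1 read, on an axis that is logarithmic above 1 and linear below, with the 3-read floor dashed. RARB (41 and 39 reads at 30 Gy, 8 and 9 at 0 Gy) shows the widest gap between dose groups among members over the floor in every library.

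Coregulators were examined because receptors act through them. Of 20 tested coactivators, in a list of 22, limma called 0, beside 19.8% of all tested genes, and voom called 1, beside 31.4%. An unadjusted limma p under 0.05 was found for 2 of the 20, beside 5049 of all 13379 tested genes. The median log2 change was 0.01. The 2 untested ones were the PGC-1 genes, coactivators of mitochondrial and fatty acid programmes that also work with ESRRA, and both were lower at 30 Gy. PPARGC1B (PGC-1 beta) had 35 and 49 reads at 30 Gy against 152 and 155 at 0 Gy, and voom over genes with at least 10 reads in 2 libraries gave a log2 change of -1.77 ± 0.28 (SE; adjusted p = 0.000111). PPARGC1A (PGC-1 alpha) had 12 and 2 reads at 30 Gy against 78 and 50 at 0 Gy. The first 30 Gy library and both 0 Gy libraries reached 10 reads, so passing that minimum depended on the 0 Gy libraries. Neither pair of groups overlapped. Of the tested coactivators the closest to the threshold was NCOA5, at 16.4 ± 1.89 FPKM at 30 Gy, against 13.3 ± 0.519 FPKM at 0 Gy (SD, n = 2 each; limma, adjusted p = 0.103; voom 0.0422). Next was the acetyltransferase KAT2B, at 5.998 ± 0.527 FPKM at 30 Gy, against 4.90 ± 0.286 FPKM at 0 Gy (SD, n = 2 each; limma, adjusted p = 0.122). Of 18 tested corepressors 1 rose and 4 fell, or 27.8% called beside 19.8% of all tested genes, with a median of -0.05. CTBP1, a CtBP corepressor, changed by -0.49 ± 0.08, the Polycomb-linked BCOR by -0.44 ± 0.07 and TBL1X, a subunit of the NCoR complex, by -0.41 ± 0.09 (SE; limma, adjusted p = 0.0177, 0.0199 and 0.0385). HDAC3, the deacetylase of the same complex, rose by 0.29 ± 0.06 (SE; limma, adjusted p = 0.0379). With 1 library left out in turn, 0 or 1 of the corepressors passed.

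Genes that make, carry or break down receptor ligands changed in both directions. Of 12 tested genes 5 rose and 3 fell, beside 10.8% and 9.06% of all tested genes, with a median of 0.12, and the other 22 of the list were not tested. STRA6, the cell surface receptor for retinol-binding protein, stood at 16.5 and 14.8 FPKM at 30 Gy against 5.22 and 5.69 FPKM at 0 Gy (log2 change 1.37 ± 0.09, SE; limma, adjusted p = 0.00241). SRD5A1, a steroid 5-alpha-reductase, stood at 7.40 and 7.18 FPKM at 30 Gy against 3.86 and 3.94 FPKM at 0 Gy (limma, adjusted p = 0.00595). DIO2, the deiodinase that activates thyroid hormone, stood at 8.09 and 8.14 FPKM at 30 Gy against 16.6 and 15.9 FPKM at 0 Gy (limma, adjusted p = 0.00307). CYP27A1, which makes an oxysterol, stood at 9.97 and 8.89 FPKM at 30 Gy against 15.5 and 14.2 FPKM at 0 Gy (limma, adjusted p = 0.0140). With 1 library left out in turn, 0 to 4 of these genes passed.

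Known target genes were counted by receptor, with up to 4 named for each. The share of all tested genes that limma called, beside which each count stands, was 10.8% higher and 9.06% lower. Of 8 tested retinoic acid receptor targets 4 rose and 1 fell (62.5% called), with a median log2 change of 0.31, and voom called 3 higher and 1 lower. TGM2, tissue transglutaminase, stood at 54.5 and 51.8 FPKM at 30 Gy against 13.4 and 14.6 FPKM at 0 Gy (log2 change 1.86 ± 0.07, SE; limma, adjusted p = 0.000990). DHRS3, a retinal reductase, rose by 0.57 ± 0.08 and CRABP2, a retinoic acid carrier, changed by -0.49 ± 0.10 (SE; limma, adjusted p = 0.0142 and 0.0281), and STRA6, given above, is on this list too. CYP26A1, the retinoic acid hydroxylase that is often the most inducible target, had 0 reads in the 4 libraries. With 1 library left out in turn, 0 to 3 of these targets passed.

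Of 9 tested PPAR targets 3 rose and 1 fell (44.4% called, beside 19.8% of all tested genes), with a median of 0.21. PDK4, which was not called, passed the FPKM minimum through the 30 Gy libraries alone. Without it 4 of 8 were called, 3 higher and 1 lower. ANGPTL4, an inhibitor of lipoprotein lipase, stood at 6.44 and 5.34 FPKM at 30 Gy against 2.85 and 2.25 FPKM at 0 Gy (limma, adjusted p = 0.0128). ACADVL, of fatty acid oxidation, rose by 0.34 ± 0.06, while CPT1A, the carnitine palmitoyltransferase of the same pathway, changed by -0.43 ± 0.06 (SE; limma, adjusted p = 0.0240 and 0.0135). Of 8 tested LXR targets limma called 3 higher and 0 lower (37.5% called, beside 10.8% of all tested genes higher and 9.06% lower). The median log2 change was 0.26, and 5 of the 8 were above 0. The other 3, SREBF1, SCD and FASN, had log2 changes of -0.18, -0.14 and -0.07 and were not called. The sterol exporters ABCA1 and ABCG1 rose by 0.57 ± 0.07 and 0.71 ± 0.11, and MYLIP, which degrades the LDL receptor, by 0.48 ± 0.09 (SE; limma, adjusted p = 0.0105, 0.0159 and 0.0292). With 1 library left out in turn, 0 or 1 of the PPAR targets and 0 of the LXR targets passed.

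Of 10 tested glucocorticoid receptor targets limma called 2 higher and 4 lower (60.0% called, beside 19.8% of all tested genes), with a median of -0.32. One of the higher ones was SGK1, a kinase of ion transport, at 5.23 and 5.74 FPKM at 30 Gy against 0.725 and 0.724 FPKM at 0 Gy. It passed the FPKM minimum through the 30 Gy libraries alone, and without it 5 of 9 were called, 1 higher and 4 lower. The phosphatase gene DUSP1 rose by 0.63 ± 0.10 (SE; limma, adjusted p = 0.0201). ERRFI1, a feedback inhibitor of EGFR, stood at 27.4 and 28.0 FPKM at 30 Gy against 62.7 and 63.8 FPKM at 0 Gy, and the factor CEBPD changed by -0.54 ± 0.08 (SE; limma, adjusted p = 0.00156 and 0.0157). Of the 2 tested estrogen receptor targets, IGFBP4 rose by 1.09 ± 0.06 and CA12 changed by -0.46 ± 0.06 (SE; limma, adjusted p = 0.00179 and 0.0114). The 3 untested ones were low. TFF1 had 0 reads in every library, and GREB1 had 30 and 19 reads at 30 Gy against 56 and 45 at 0 Gy. PDZK1 had 23 and 19 reads at 30 Gy against 27 and 24 at 0 Gy. THBD, thrombomodulin, was the 1 tested vitamin D receptor target, at 7.58 and 7.36 FPKM at 30 Gy against 12.4 and 12.4 FPKM at 0 Gy (limma, adjusted p = 0.00601). Of the untested ones, CYP24A1, the vitamin D hydroxylase, had 62 and 40 reads at 30 Gy and 53 and 84 at 0 Gy. TRPV6 was higher at 30 Gy, with 22 and 17 reads against 4 and 6 at 0 Gy. CD14 had 12 and 14 reads at 30 Gy against 18 and 20 at 0 Gy, and CAMP had 0 in every library. ABCB1 was the 1 tested target of the xenobiotic and bile acid receptors, with a log2 change of 0.29 that did not pass (limma, adjusted p = 0.324). With 1 library left out in turn, 0 to 3 glucocorticoid receptor targets, 0 or 1 estrogen receptor targets and 0 or 1 vitamin D receptor targets passed. Many of these genes answer to several pathways, and the lists do not show which receptor acted.

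**Figure D5:**
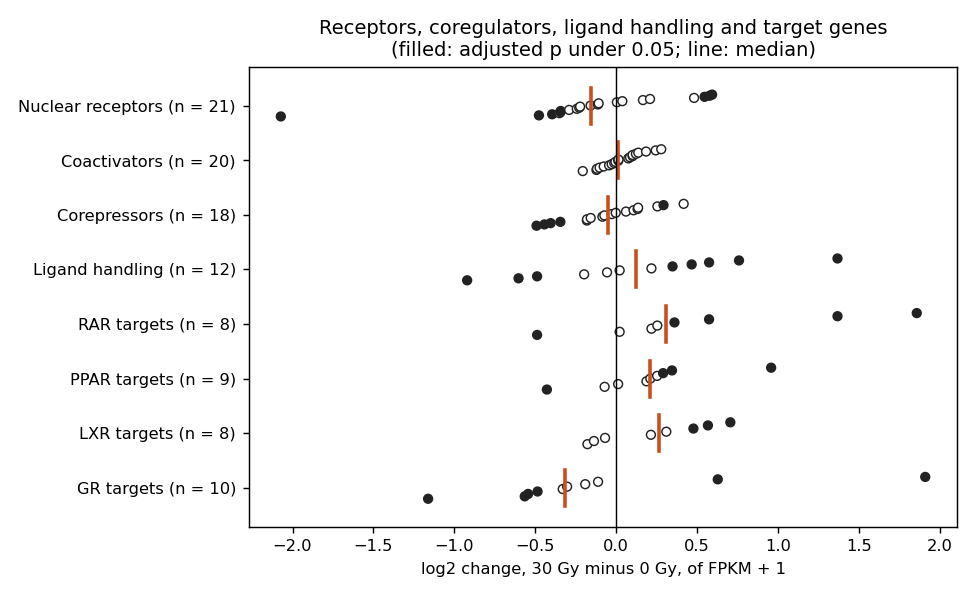
log2 change of FPKM + 1, 30 Gy minus 0 Gy, for tested genes of the receptor family and of 7 related lists, one point per gene, filled where limma gave an adjusted p under 0.05, with the median as a line. The 20 tested coactivators lie closest together (PPARGC1A and PPARGC1B were not tested and are not drawn), and NR0B1 is the lowest point in the plot.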

How the data were processed

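The authors deposited 1 FPKM value per gene and library. Per the submitters' processing notes, positions are on hg38, and no aligner, counter, strand setting or annotation release is stated there. Gene lengths in bases came with the table. Dividing FPKM times length by the value of 1 read in each library gave whole reads for 100% of values above 0 (within 0.001), and so the depth; floors are 3 reads and cover counting error only. The 13379 genes that reached FPKM 1 in 2 or more libraries were fitted with limma 3.58.1 (trend, two-sided, R 4.3.3) on log2(FPKM + 1), adjusted by Benjamini-Hochberg over all of them at 0.05, with 2 residual and 2.98 prior degrees of freedom. This scale understates changes of low genes. Exact permutation of 2 against 2 cannot go below 0.333 and was not used. The scripts were tested on simulated data. Members, lists and tests were chosen with earlier results of these data known. Named genes are all tested members, and up to 4 called genes per list by adjusted p, or 2 where none was called. A gene this rule names among the PPAR targets is not reported here. Exons and overlaps come from GENCODE v29, upstream sequences from RefSeq (GRCh38.p14). Alternatives were pseudocount, filter, scaling, eBayes settings, a replicate block, each library left out, and limma's voom with TMM on recovered reads.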

Additional observations from a re-analysis of the deposited data

How the results depend on the processing

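Of the called members, NR0B1 passed in all 10 alternatives that kept the 4 libraries, ESRRA and PPARD in 9 of 10, RXRA, THRA and PPARG in 7 of 10, and NR2F1 in 4 of 9; NR4A2 is left aside, as it passed the filter through 1 dose group. With no filter limma called 604 of 30687 genes. The called members then numbered 1, corepressors 0, ligand-handling genes 3, LXR targets 1, RAR targets 2, PPAR targets 1, GR targets 2 and NR0B1 partners 1. Without the eBayes trend limma called 2255 of 13379 genes, and 5 members, 3 corepressors, 2 PPAR targets and 1 NR0B1 partner. voom called 4196 genes, 2 neighbours of NR0B1 and 1 coactivator. Over genes with at least 10 reads in 2 libraries (chosen after seeing the data) voom called 13 members, RARB among them with the limit given above. Leaving out 1 library in turn gave 0 to 2 members, 0 to 898 genes, 0 to 1 neighbours, 0 to 1 corepressors, 0 to 4 ligand-handling genes, 0 to 3 RAR targets, 0 to 1 PPAR targets, 0 to 1 VDR targets, 0 to 3 GR targets, 0 to 1 ER targets, and 0 LXR targets and NR0B1 partners. Without either 0 Gy library limma called 0 genes, with 3422 and 3460 at an unadjusted p under 0.05. The sign turned for 3 uncalled members: RXRB, at -0.013 under median centring, -0.0021 under quantile normalization, -0.013 with equal sums and -0.037 to 0.046 with 1 library left out, NR1H2 at -0.013 to 0.088 and NR6A1 at -0.32 to 0.0083 with 1 library left out. The cause of these shifts was not tested.

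Replicate numbers did not pair the libraries (correlation of deviations across doses -0.026). With the replicate block 1926 genes, 3 members, 2 corepressors, 3 RAR targets and 1 NR0B1 partner were called. Members under 10 reads were too shallow to compare.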
